A study of Arabidopsis thaliana with 12 samples.

Results

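The nuclear genes of the photosystems and their antennae are described here: 34 listed genes of 32992 measured once per library, made up of 4 LHCA genes (antenna of photosystem I), 14 LHCB genes (antenna of photosystem II), 9 photosystem I subunits and 7 photosystem II subunits. They were picked by gene identifier from lists of these protein families, with earlier results of these data known. Polyadenylated RNA came from shoots of Arabidopsis thaliana seedlings at 14 days, in 4 groups of 3 libraries. The groups were the hybrids C24/Col and Col/C24, from crosses between the ecotypes in both directions, and the parents C24 and Col. All were wild type and grew in short days, with 8 h of light at 22 °C and nights of 16 h at 18 °C. The labels leave out which parent was the mother of each hybrid, how many plants made up a library and the hour of harvest. Nothing says that replicates were grown separately, so a p-value here measures only how far these libraries spread.

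Photosystem II and photosystem I are pigment-protein complexes of the thylakoid membrane that drive electrons from water to ferredoxin. Their reaction centre proteins are encoded in the plastid genome, whereas the antenna proteins and many peripheral subunits are encoded in the nucleus, made in the cytosol and imported. The LHCB proteins form trimers (LHCB1, LHCB2 and LHCB3) and monomers (LHCB4, LHCB5 and LHCB6) around photosystem II, and LHCA1 pairs with LHCA4 and LHCA2 with LHCA3 beside photosystem I. These genes are known for strong expression in green leaves, for regulation by light and the clock, and for activation by the GLK transcription factors.

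Several antenna genes are near-identical copies, which bears on how their reads can be told apart. LHCB1.1 (AT1G29920), LHCB1.2 (AT1G29910) and LHCB1.3 (AT1G29930) lie together on chromosome 1, and LHCB2.1 (AT2G05100) and LHCB2.2 (AT2G05070) lie on chromosome 2. The coding sequences of LHCB1.1 and LHCB1.2 differ at 35 of 804 positions and translate into the same 267 residues, and LHCB1.3 differs from both by 1 residue. LHCB2.1 and LHCB2.2 differ at 27 of 798 coding positions and in 6 residues. The stretches of 60 coding bases in which the copies differ most are shown next, from the coding sequence of the first annotated isoform (RefSeq, TAIR10.1). Capitals mark every position at which the copies of a set differ. The LHCB1 stretch covers coding bases 25 to 84 and the LHCB2 stretch covers coding bases 34 to 93.
LHCB1.1: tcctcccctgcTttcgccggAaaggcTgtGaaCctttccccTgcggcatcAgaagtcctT
LHCB1.2: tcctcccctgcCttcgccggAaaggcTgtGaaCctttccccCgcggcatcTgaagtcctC
LHCB1.3: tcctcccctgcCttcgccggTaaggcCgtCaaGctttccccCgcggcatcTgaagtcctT
LHCB2.1: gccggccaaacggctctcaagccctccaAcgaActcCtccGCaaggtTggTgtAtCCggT
LHCB2.2: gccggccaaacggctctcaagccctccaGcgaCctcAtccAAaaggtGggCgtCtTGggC

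Of the windows of 50 bases in the annotated exons, 29.5% of those of LHCB2.2 and 23.5% of those of LHCB2.1 occur elsewhere in the genome. The shares were 20.5% for LHCB1.1, 17.3% for LHCB1.5, 17% for LHCB1.3, 13.7% for LHCB1.4, 11.4% for LHCA2 and 10.6% for LHCB1.2, and 0.0% for the other members. How reads that match several places were counted is not stated, so values within LHCB1 and within LHCB2.1 and LHCB2.2 are uncertain as to the copy. The counting is not stated to use strand either, and 12 members overlap a gene on the opposite strand. If strand was not used, reads inside these overlaps cannot be told apart. Overlaps were measured over whole gene spans, introns included. The overlap is 1045 bp, the whole exon length, for LHCB1.5 with a long noncoding RNA, 595 bp for LHCB2.3, 479 bp for PSAG and 358 bp for LHCB6. It is 39 to 186 bp for LHCA4, LHCB1.3, LHCB3, LHCB4.2, PSAH2, PSAN, PSBP1 and PSBR.

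The 250 bases before the gene start are shown for some of the members described below, with letters searched on both strands in capitals. The letters were CACGTG (G-box), GATAAG (I-box core), AAAAATCT (CCA1 site), AAATATCT (evening element) and CCAATC (bound by GLK factors), none of which contains another. LHCB1.2 and PSAF, which also differed between the parents, are not shown. None of the letters stood before LHCB1.2, and only GATAAG stood before PSAF. Sequences run 5′ to 3′ towards the gene start and are from RefSeq, TAIR10.1.
LHCA2 (AT3G61470, chr3:22745264-22745513, plus strand): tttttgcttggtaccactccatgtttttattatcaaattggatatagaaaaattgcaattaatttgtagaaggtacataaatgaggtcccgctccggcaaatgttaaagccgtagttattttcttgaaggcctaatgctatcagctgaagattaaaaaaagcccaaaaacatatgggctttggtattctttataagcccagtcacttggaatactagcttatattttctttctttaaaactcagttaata
LHCA3 (AT1G61520, chr1:22699465-22699714, plus strand): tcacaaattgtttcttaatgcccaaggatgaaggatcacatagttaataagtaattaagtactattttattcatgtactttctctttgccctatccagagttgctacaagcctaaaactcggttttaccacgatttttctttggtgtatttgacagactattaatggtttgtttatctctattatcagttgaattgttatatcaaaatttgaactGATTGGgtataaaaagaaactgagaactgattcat
LHCB2.1 (AT2G05100, chr2:1824481-1824730, minus strand): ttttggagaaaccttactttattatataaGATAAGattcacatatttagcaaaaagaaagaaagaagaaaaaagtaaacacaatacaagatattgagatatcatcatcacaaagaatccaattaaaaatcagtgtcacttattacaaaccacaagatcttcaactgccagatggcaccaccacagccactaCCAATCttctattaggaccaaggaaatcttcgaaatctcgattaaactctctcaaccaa
LHCB2.2 (AT2G05070, chr2:1800473-1800722, minus strand): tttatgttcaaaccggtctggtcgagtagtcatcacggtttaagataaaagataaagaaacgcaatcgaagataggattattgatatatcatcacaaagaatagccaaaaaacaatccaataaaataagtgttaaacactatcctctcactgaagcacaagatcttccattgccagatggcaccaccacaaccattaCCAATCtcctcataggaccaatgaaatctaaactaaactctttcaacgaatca
LHCB2.3 (AT3G27690, chr3:10255656-10255905, plus strand): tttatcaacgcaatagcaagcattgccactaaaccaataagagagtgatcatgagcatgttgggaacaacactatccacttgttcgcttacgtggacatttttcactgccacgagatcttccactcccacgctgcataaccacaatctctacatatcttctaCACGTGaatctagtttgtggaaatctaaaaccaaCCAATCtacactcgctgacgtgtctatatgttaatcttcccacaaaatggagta
PSAN (AT5G64040, chr5:25629709-25629958, minus strand): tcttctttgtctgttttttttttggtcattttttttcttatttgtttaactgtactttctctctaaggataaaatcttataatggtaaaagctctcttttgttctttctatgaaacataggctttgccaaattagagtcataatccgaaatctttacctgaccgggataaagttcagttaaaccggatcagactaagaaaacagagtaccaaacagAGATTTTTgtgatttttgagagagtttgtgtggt

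CCAATC stood in 11 of the 34 member promoters (32.4%), against 2807 of 27443 promoters of protein-coding genes of the same length (10.2%). It was found in 3 of 4 LHCA and 7 of 14 LHCB promoters, and in 1 of 7 photosystem II and 0 of 9 photosystem I promoters. In the 3 LHCB2 promoters it began at similar places, 59 bases before the gene start in LHCB2.1, 53 in LHCB2.2 and 54 in LHCB2.3. GATAAG was in 9 member promoters (26.5%, against 12.3% of all), CACGTG in 6 (17.6%, against 6.49%) and AAAAATCT in 5 (14.7%, against 6.69%). AAATATCT was in 0 of 34 (4.79% of all). A match is a description of these letters and not of binding, and the C24 versions of these promoters were not read here.

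Depths estimated from the spacing of low values were 15.8 to 27.2 M reads per library (M being 1e6), at which 3 reads on a gene of 1000 bp amount to 0.11 to 0.19 RPKM (reads per kilobase of gene per M reads), a limit that covers counting error only. Members took 14.9% to 19.9% of the summed RPKM of nuclear genes. Ribosomal RNA took 0.231% to 4.49% of all RPKM, and plastid genes 0.272% to 4.31%. In C24 the ribosomal share was at most 0.441%. It was above 2% in 4 libraries, replicates 1 and 3 of Col/C24 and replicates 1 and 2 of Col. The summed level of 3 leaf genes (RBCS1A, CA1 and RCA) was 15850 to 20670 RPKM in every library, and that of 4 root genes was 71.2 to 113 RPKM, nearly all of it PYK10. Flower markers summed to at most 3.61 RPKM, and seed storage genes to 131 RPKM in C24/Col 3, 51.0 in Col/C24 1, 24.2 in C24/Col 1 and at most 0.5 in the other libraries. In such whole shoots, fewer green cells and less RNA per cell cannot be told apart.

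Photosystem and antenna transcripts were among the most abundant in these shoots. Members made up 16 of the 20 genes with the highest mean RPKM, and 31 of 34 members were above 1000 RPKM in every library. Within the LHCB genes, LHCB1.5 (AT2G34420), a main trimer protein, had the highest mean over the 12 libraries, with 9626, 11424 and 11024 RPKM in C24/Col replicates 1 to 3, 9674, 12015 and 10650.2 in Col/C24, 9239, 10263 and 9784 in C24 and 8911, 9792 and 10919.9 in Col. The groups overlapped, and replicate 1 was lowest in each. In C24 the order was turned, LHCB1.2 being above LHCB1.5 in all 3 libraries (mean 10710 against 9762 RPKM). LHCB1.2 and LHCB1.1 followed with means of 9628 and 8358 RPKM over the 12 libraries, ahead of LHCB3 (5821) and the monomer genes LHCB5 (5117), LHCB6 (3012), LHCB4.1 (3009) and LHCB4.2 (2496). LHCB2.2, LHCB2.1 (3176), LHCB6 and LHCB4.1 follow each other in the order of means, and neighbours among them differed by less than their SDs over libraries, which were 279 to 516 RPKM.

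**Figure D1:**
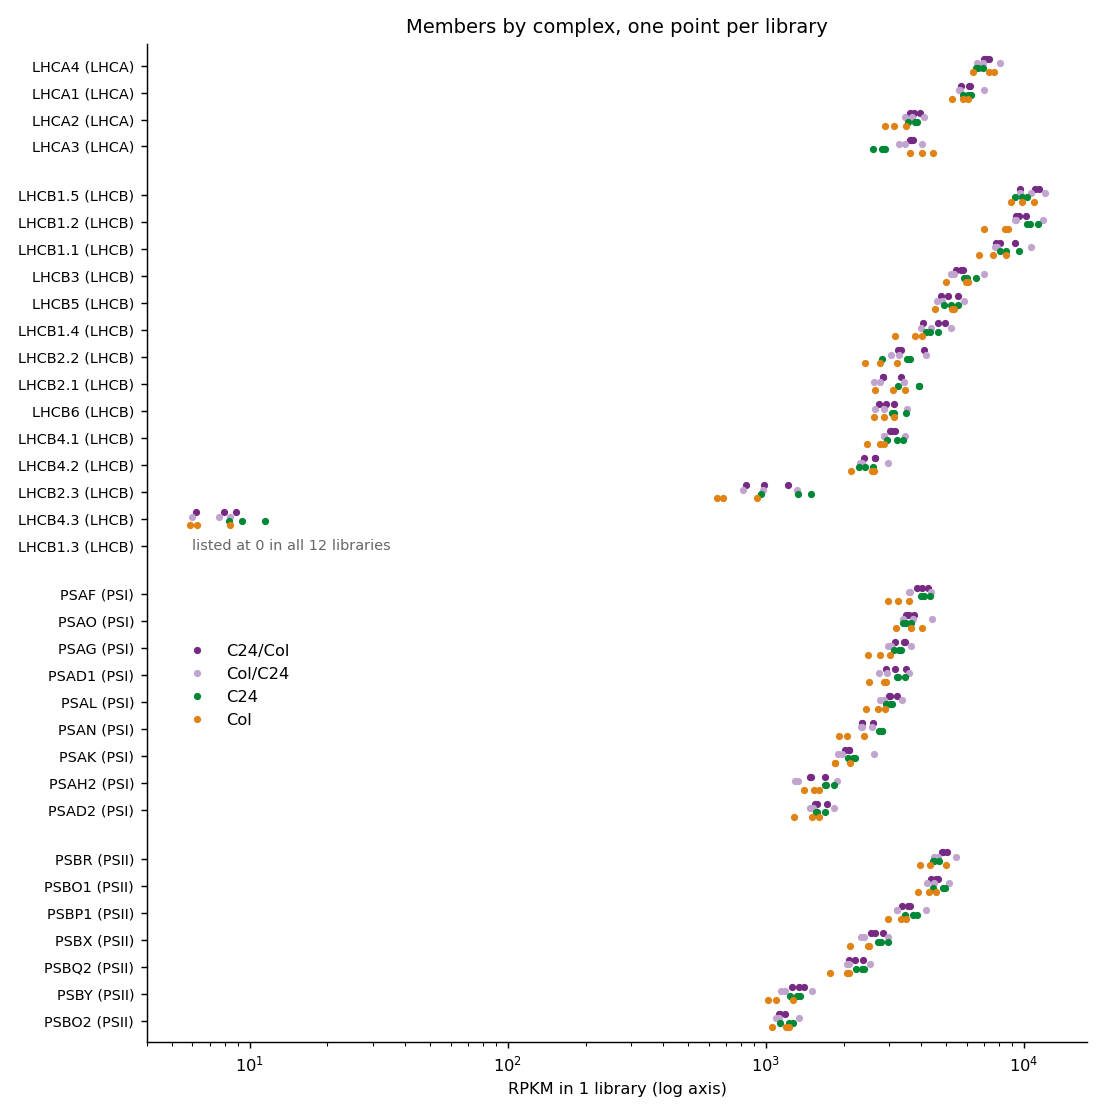
RPKM of each member in each of the 12 libraries on a log axis, with members ordered by mean within their complex. Points are libraries, in C24/Col, Col/C24, C24 and Col from top to bottom, and only LHCB2.3, LHCB4.3 and LHCB1.3 reach below 1000 RPKM.

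The exceptions to high expression were all LHCB genes. LHCB4.3 (AT2G40100), a relative of the CP29 genes LHCB4.1 and LHCB4.2, had 7.95, 8.87 and 6.22 RPKM in C24/Col libraries, 5.96, 8.36 and 7.57 in Col/C24, 9.33, 11.5 and 8.32 in C24 and 6.27, 8.38 and 5.85 in Col. Its groups overlapped, C24 being highest on average at 9.70 ± 1.60 RPKM, against 6.83 ± 1.36 in Col (SD, n = 3). LHCB4.1 had 3082, 3169 and 3019.6 RPKM in C24/Col libraries, 2859, 3469 and 2855 in Col/C24, 2956, 3392 and 3214 in C24 and 2466, 2762 and 2867 in Col, where C24 lay above Col without overlap. LHCB4.2 had 2397, 2646 and 2639.7 RPKM in C24/Col libraries, 2353, 2961 and 2304 in Col/C24, 2301, 2597 and 2428 in C24 and 2135, 2583 and 2609.6 in Col, and all groups overlapped.

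LHCB1.3 (AT1G29930) was listed at 0 in all 12 libraries, although 980 of its 1181 exon windows of 50 bases occur once in the genome. It overlaps a gene on the opposite strand by 108 bp, and why it is listed at 0 was not tested.

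Among the photosystem I antenna genes, LHCA4, whose product carries long-wavelength chlorophylls, was highest. It had 6969, 7331 and 7094 RPKM in C24/Col libraries and 6901, 8063 and 6575 in Col/C24. In the parents it had 6484, 6957 and 6629 in C24 and 6357, 7323 and 7677 in Col. C24 lay just below C24/Col, and the other pairs of groups overlapped. LHCA1, its partner, averaged 5953 RPKM over all libraries, LHCA2 averaged 3600 and LHCA3 3514. PSAF, the docking subunit for plastocyanin, was the highest photosystem I subunit with a mean of 3823 RPKM.

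PSAD, on the other side of the complex, docks ferredoxin and is encoded by a pair of genes. PSAD1 had 2906, 3498 and 3169 RPKM in C24/Col libraries, 2747, 3566 and 2933 in Col/C24, 3246, 3452 and 3222 in C24 and 2499, 2907 and 2867 in Col. PSAD2, with 1577 RPKM the lowest photosystem I member by its mean over the 12 libraries, had 1547, 1724 and 1575 in C24/Col, 1485, 1834 and 1522 in Col/C24, 1579.8, 1698 and 1558 in C24 and 1284, 1603 and 1512 in Col. PSAH2, with a mean of 1581, was lower than PSAD2 in both hybrids (1557 against 1615 RPKM in C24/Col, and 1508 against 1614 in Col/C24). PSAD1 exceeded PSAD2 1.81-fold to 2.07-fold in every library, and C24 lay above Col without overlap for PSAD1 but not for PSAD2.

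Among the photosystem II genes, PSBR, a subunit beside the oxygen-evolving complex, had 4814, 5046 and 4849 RPKM in C24/Col libraries, 4659, 5433 and 4458 in Col/C24, 4480.1, 4447 and 4663 in C24 and 3964, 4327 and 4997 in Col. PSBO2, the lesser gene of the manganese-stabilising protein, had 1187, 1136 and 1122 in C24/Col, 1122, 1345 and 1090.0 in Col/C24, 1230.5, 1272 and 1133 in C24 and 1054, 1224 and 1197 in Col. PSBR was higher in C24/Col than in C24 without overlap, and the other pairs of groups overlapped for both genes. PSBO1, the major gene, had 4357, 4572 and 4655 RPKM in C24/Col libraries, 4193, 5127 and 4457 in Col/C24, 4453, 4937 and 4830.1 in C24 and 3883, 4296 and 4550.1 in Col, all overlapping. It exceeded PSBO2 3.51-fold to 4.26-fold in every library.

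The spread of a member over the 12 libraries was small, with coefficients of variation of 7.03% (PSBO2) to 26.4% (LHCB2.3) and a median of 9.76%, against a median of 14.4% over all genes tested. Much of it was shared: 28 of 33 measured members were highest in Col/C24 2 and 27 were lowest in Col 1. These libraries also had the highest and the lowest summed RPKM over all genes (748401 and 722927.6). The share of all genes with these places was not computed. By complex, LHCB genes summed to 60200 ± 4030 RPKM in C24/Col libraries, 61190 ± 8910 in Col/C24, 62030 ± 3580 in C24 and 54500 ± 5440 in Col. LHCA genes summed to 20550 ± 575 RPKM in C24/Col libraries, 20570 ± 2220 in Col/C24, 19230 ± 714 in C24 and 20040 ± 1810 in Col, so that for LHCA alone C24 had the lowest mean. Between the parents, the sums of LHCA and photosystem II overlapped. The sum of photosystem I genes was 25102.5 to 26076 RPKM in C24, above 20074 to 23277 in Col, and that of LHCB genes was 59389 to 66103 in C24, above 48236 to 58004 in Col.

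**Figure D2:**
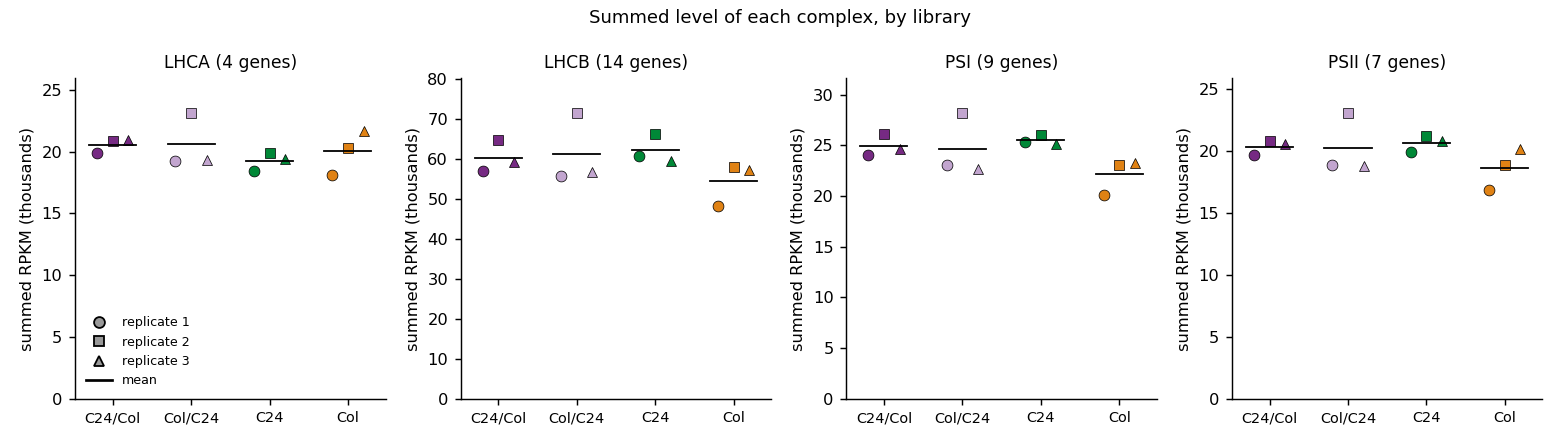
Summed RPKM of the LHCA, LHCB, photosystem I and photosystem II members by library, with bars at group means. Col/C24 replicate 2 is the highest library in all 4 panels, and Col replicate 1 the lowest.

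Between the parents, LHCB2.3, LHCB1.2, PSAN and PSAF were higher in C24, LHCA3 was lower, and most members did not pass. In limma over 17927 genes on log2(RPKM + 1), with Benjamini-Hochberg adjustment over all of them and a threshold of 0.05, 4 of 33 tested members were higher in C24 than in Col, 1 was lower and 28 did not pass. Over all genes 10.3% were higher and 12.4% lower, so the members' count of higher calls was near the background and that of lower calls below it. The fold change was positive for 29 of 33 members, with a median log2 fold change of 0.20 against -0.02 over all genes tested. By complex the median was 0.24 for LHCB, 0.20 for photosystem I, 0.17 for photosystem II and -0.002 for LHCA. In photosystem II, 7 of 7 were positive and 0 of 7 passed (smallest limma adjusted p = 0.105, and 2 with an unadjusted p under 0.05). Over all genes 6187 of 17927 had an unadjusted p under 0.05.

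LHCA3 (AT1G61520, chr1:22699715-22701412), the antenna protein paired with LHCA2, had 2596, 2892 and 2821 RPKM in C24, against 3615, 4035 and 4448 in Col. The hybrids had 3613, 3641 and 3719 in C24/Col and 3289.9, 4030.1 and 3467 in Col/C24. Every C24 library was below every other library, and the hybrids overlapped Col. The log2 fold change of C24 over Col was -0.54 (SE 0.10, limma adjusted p = 0.00252), and LHCA3 passed in 17 of 17 alternatives. Loss of C24 reads in mapping to the reference genome was not tested.

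Its partner LHCA2 (AT3G61470) went the other way, with 3553, 3769 and 3844 RPKM in C24, against 2887, 3125 and 3489.7 in Col. The parents did not overlap, but the log2 fold change of 0.24 (SE 0.09) did not pass (limma adjusted p = 0.0864). With the replicate number as a block it passed (limma adjusted p = 0.0280). Within a library the ratio of LHCA3 to LHCA2 was 0.942 to 0.996 in C24/Col, 0.944 to 0.988 in Col/C24, 0.731 to 0.767 in C24 and 1.25 to 1.29 in Col. The hybrids lay between the parents with no overlap. This ratio and those of other pairs were examined after the values were seen, and are descriptions.

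LHCB2.3 (AT3G27690, chr3:10255906-10257489), a trimer protein of the LHCB2 type, had 1488, 1329.9 and 956 RPKM in C24, against 685, 922 and 645 in Col. The hybrids had 979, 1213 and 834 in C24/Col and 973, 1317 and 812 in Col/C24. C24 was above Col without overlap, the hybrids overlapped both, and replicate 3 was the lowest of each group. The log2 fold change was 0.74 (SE 0.23, limma adjusted p = 0.0376), and in 8 of 17 alternatives it did not pass, with adjusted p = 0.125 as the highest value when 1 library was left out and 0.179 with the share of ribosomal RNA in the model.

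LHCB1.2 (chr1:10472280-10473502) had 10521, 11361 and 10244 RPKM in C24, against 6987, 8449 and 8637 in Col. The hybrids had 9305, 10136 and 9535 in C24/Col and 9214, 11845 and 9304 in Col/C24. Every Col library was below every other library. For C24 over Col the log2 fold change was 0.42 (SE 0.12, limma adjusted p = 0.0243), which passed in 10 of 17 alternatives, and its near-identical neighbour LHCB1.1 averaged 8719 ± 784 RPKM in C24 and 7609 ± 928 in Col (limma adjusted p = 0.356).

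PSAN (AT5G64040, chr5:25628521-25629708), a lumenal subunit of photosystem I on the plastocyanin side, had 2823, 2803 and 2730.1 RPKM in C24, against 1919.6, 2400.2 and 2062 in Col. The hybrids had 2355, 2587 and 2362 in C24/Col and 2359, 2580.0 and 2339 in Col/C24. The C24 libraries lay close together above all others, and the hybrids overlapped Col. The log2 fold change was 0.40 (SE 0.09, limma adjusted p = 0.0085), and PSAN passed in 16 of 17 alternatives. PSAF (AT1G31330) had 3987, 4325 and 4109 RPKM in C24, against 2982, 3588 and 3246 in Col. The hybrids had 3829, 4245 and 4025 in C24/Col and 3592, 4340.1 and 3603 in Col/C24. Every Col library was below every other library. The log2 fold change of C24 over Col was 0.34 (SE 0.10, limma adjusted p = 0.0274), which passed in 8 of 17 alternatives.

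**Figure D3:**
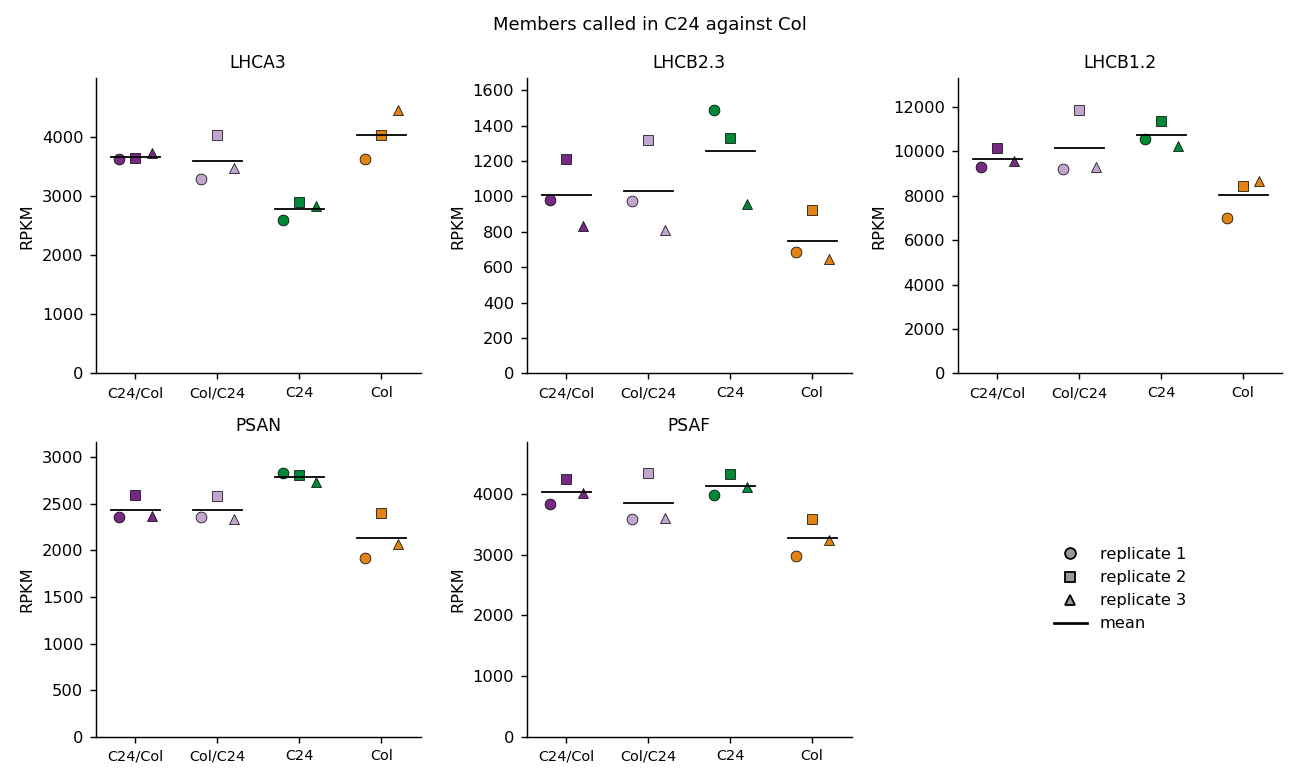
RPKM by library of the 5 members that passed in C24 against Col, with bars at group means and symbols for the replicate number. LHCA3 is lowest in C24, the other 4 genes are lowest on average in Col, and replicate 2 is the highest library of most groups.

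The ribosomal RNA share moved with the parents, being 0.231% to 0.441% in C24 and 0.576% to 2.69% in Col. With this share in the model 1 member was higher (PSAN) and 1 lower (LHCA3), against 6.37% and 9.83% of all genes, with 22 of 33 members positive and a median log2 fold change of 0.05. The root gene PYK10 also moved with the parents, at 109, 113 and 110.4 RPKM in C24, against 70.1, 74.3 and 96.2 in Col (limma adjusted p = 0.00786). The 4 root markers summed to 109.5 to 113 RPKM in C24 and 71.2 to 97.0 in Col, those other than PYK10 being at most 0.66 RPKM in any library. The 3 flower markers summed to 2.8 to 3.61 RPKM in C24 and 2.27 to 2.45 in Col. The 9 heat, touch and defence genes of the stress list summed to 484 to 3219 RPKM in C24 and 403 to 1340 in Col. Of them 1 was higher in C24 (ZAT10), and 7 with the replicate block. The part of root, flower and stress genes in the members' differences was not tested. In the fit with the replicate number as a block, 12 members were higher and 1 lower, against 20.2% and 21.5% of all genes. Those gained were LHCA2, LHCB1.4, LHCB2.1, LHCB4.1, LHCB4.3, PSAD1, PSBQ2 and PSBX. In replicates 2 and 3 alone 0 members were higher and 1 lower, where 1611 and 1440 of 17576 genes were. Leaving out 1 parental library gave 2 to 6 calls among members. There were 2 without replicate 1 of C24, without replicate 2 of C24, or without replicate 1 of Col. Over all genes, leaving out 1 parental library gave 1364 to 1684 higher and 1617 to 1897 lower, of 17844 to 17862 tested. By the values alone, 14 members had parents that did not overlap, 13 of them with C24 above Col, against 37.4% and 16.7% of all genes tested.

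**Figure D4:**
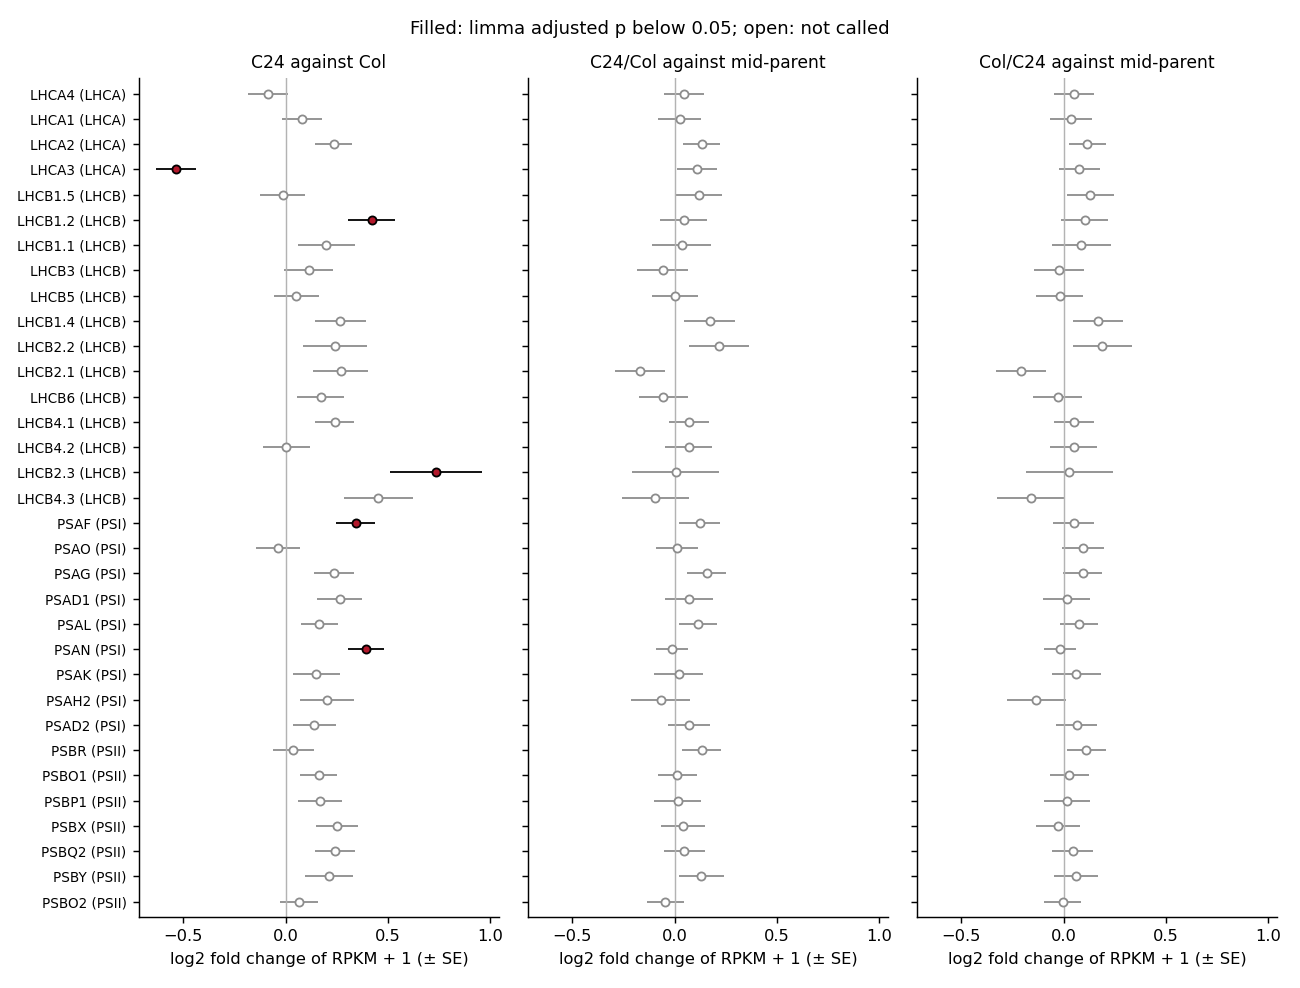
Log2 fold change of RPKM + 1 with its SE for each of the 33 tested members, in C24 against Col, C24/Col against the mid-parent and Col/C24 against the mid-parent. Filled points passed the threshold, which 5 members did in the first panel and 0 in the other panels.

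No member was called between the reciprocal hybrids. For C24/Col against Col/C24, 0 of 33 members passed in limma, with log2 fold changes of -0.08 (PSAO, SE 0.11) to 0.07 (PSAF, SE 0.10) and with 0.953 as the lowest adjusted p. Unadjusted p-values under 0.05 were found for 0 members and 745 of all genes, of which 0.0% passed, also with the replicate block (0.0%). The fold change was positive for 20 members and negative for 13 with the deposited values, while after median-of-ratios scaling it was negative for 33 of 33. LHCB1.2 averaged 9658 ± 429 RPKM in C24/Col, with 10120 ± 1490 in Col/C24, a difference within the spread of libraries, and PSAN averaged 2435 ± 132 RPKM in the C24/Col hybrid and 2426 ± 134 in the other.

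The mid-parent was the mean RPKM of the C24 and Col libraries of 1 replicate number. Against it, the hybrids likewise had 0 called members, and 0 with an unadjusted p under 0.05. Over all 17927 genes tested, 1089 had such a p for C24/Col and 1587 for Col/C24. For C24/Col 0 of 33 passed (0.0502% of all genes, limma), with a median log2 fold change of 0.045, with 0.919 as the lowest adjusted p. For Col/C24 0 of 33 passed (0.0335% of all genes), with a median of 0.05 and 0.619 as the lowest. With the replicate block, 1.57% and 2.90% of all genes passed in these comparisons, and still 0 members. LHCA3 averaged 3658 ± 55.1 RPKM in C24/Col, with 3596 ± 386 in Col/C24, against 3401 ± 270 for the mid-parent (SD, n = 3). The mean of the 6 hybrid libraries lay between the parental means for 20 members, above both for 12 and below both for 1, which was LHCB2.1. Shares over all genes were not computed for these places. Members also moved together, 28 of 33 being highest in Col/C24 2 and 27 lowest in Col 1, again without a share over all genes. LHCB1.3, at 0, is in none of these counts.

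LHCB2.1 and LHCB2.2 lay on opposite sides of their mid-parents. LHCB2.1 had 2844, 3322 and 2850.3 RPKM in C24/Col, with 2775, 3435 and 2611 in Col/C24, against 3924, 3899.9 and 3244 in C24 and 2646, 3442 and 3115 in Col. LHCB2.2 had 3348, 4099 and 3237 RPKM in C24/Col, with 3275, 4183 and 3057 in Col/C24, against 3599.5, 3511 and 2813 in C24 and 2423, 3219.7 and 2759 in Col. Each gene alone overlapped between hybrids and parents, with log2 fold changes against the mid-parent of -0.17 (C24/Col) and -0.21 (Col/C24) for LHCB2.1 and of 0.22 and 0.19 for LHCB2.2, none of which passed (smallest limma adjusted p = 0.619).

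Their ratio within a library did not overlap. LHCB2.1 over LHCB2.2 was 0.810 to 0.881 in C24/Col and 0.821 to 0.854 in Col/C24, against 1.09 to 1.15 in C24 and 1.07 to 1.13 in Col. So LHCB2.2 was the higher copy in 6 of 6 hybrid libraries and LHCB2.1 in 6 of 6 parental libraries, a pattern chosen after the values were seen and given with no test. The sum of the copies showed no such split, at 6567 ± 742 RPKM in C24/Col libraries, 6446 ± 1030 in Col/C24, 6997 ± 816 in C24 and 5868 ± 797 in Col. These are the copies with the highest shares of exon windows in common with other loci, and the part of read assignment in their ratio was not tested.

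Other related pairs behaved differently. LHCB1.4 over LHCB1.5 was 0.419 to 0.431 in C24/Col and 0.410 to 0.434 in Col/C24, between C24 (0.441 to 0.452) and Col (0.354 to 0.386). LHCB4.1 over LHCB4.2 overlapped between hybrids and parents, at 1.14 to 1.29 in the hybrids and 1.07 to 1.32 in the parents. The PSAD and PSBO pairs overlapped as well, and LHCB1.1 over LHCB1.2 was 0.820 to 0.910 in the hybrids and 0.785 to 1.01 in the parents.

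**Figure D5:**
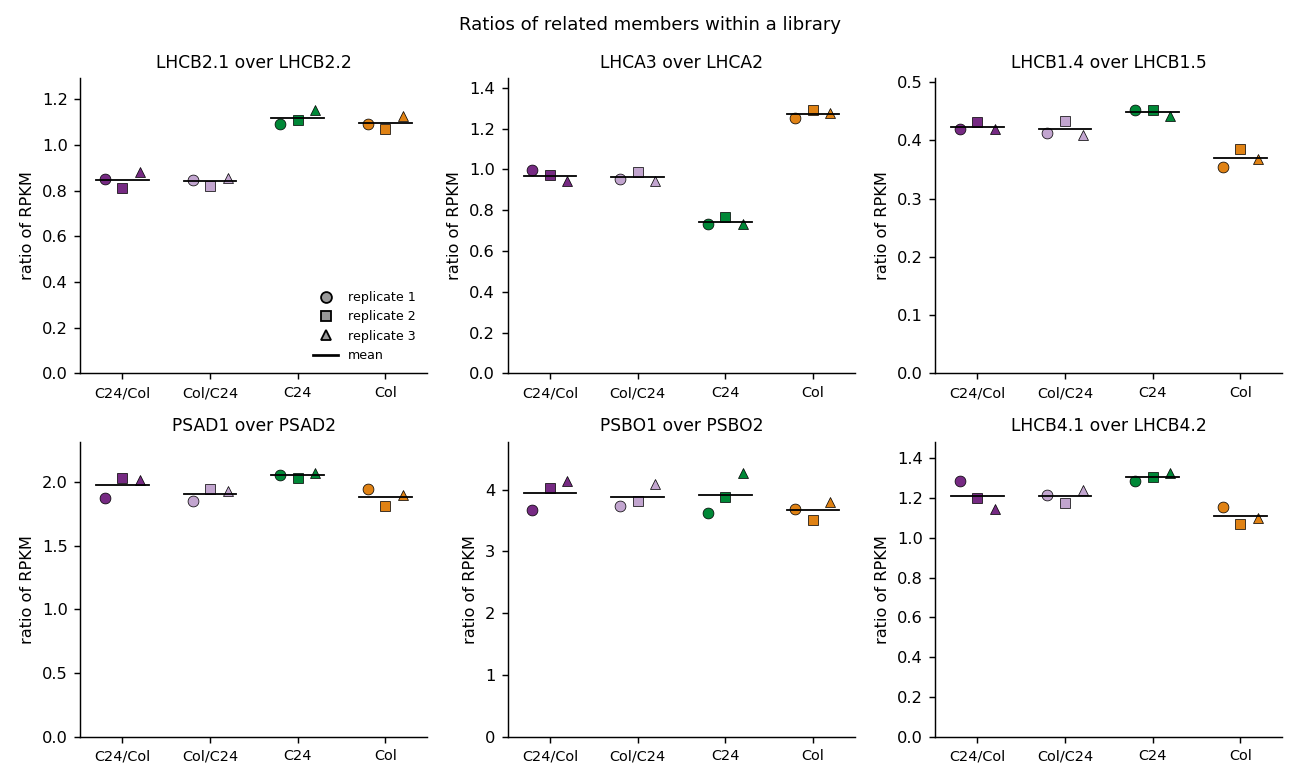
Ratio of RPKM between related members within each library, by group, with bars at group means. The ratio of LHCB2.1 to LHCB2.2 is below 1 in the 6 hybrid libraries and above 1 in the 6 parental libraries, and that of LHCA3 to LHCA2 in hybrids lies between the parents.

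The hybrids were also set against each parent. Compared with Col, 31 of 33 members had positive fold changes in the hybrids, with a median log2 fold change of 0.14 against -0.04 over all genes tested. On the deposited values 0 passed in limma (smallest adjusted p = 0.0635, for PSAF with a log2 fold change of 0.27). An unadjusted p under 0.05 was found for 10 members, and for 4748 of the 17927 genes tested. Over all 17927 genes 12.5% passed in either direction, 747 genes being higher and 1486 lower. With the replicate block 8 members were higher (LHCA2, LHCB1.2, LHCB1.4, LHCB2.2, LHCB2.3, PSAF, PSAG and PSAN), against 11.3% of all genes. After median-of-ratios scaling 7 were higher (6.03% of all genes), and after rescaling to nuclear genes without ribosomal RNA 6 (4.40%).

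Compared with C24, the hybrids had 1 higher member of 33, LHCA3, and 0 lower, against 3.68% of all genes higher and 3.85% lower. An unadjusted p under 0.05 was found for 4 members, 1 higher and 3 lower, and for 3664 of 17927 genes in either direction. LHCA3 had a log2 fold change of 0.39 (SE 0.08, limma adjusted p = 0.0177), and it did not pass without any 1 of the C24 replicates (adjusted p up to 0.0859). The median over members was -0.04, and -0.03 over all genes tested. With the replicate block 4 members were lower, LHCB2.1, LHCB2.3, LHCB4.3 and PSAN, and LHCA3 was higher, against 13.4% and 8.73% of all genes. These comparisons share the hybrid libraries with each other and the parental libraries with C24 against Col.

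Genes of the same pathway outside the members were read from lists of other photosystem genes, electron transport genes and regulators. Of 13 other photosystem genes 3 were higher in C24 than in Col and 0 lower, where 10.3% of all genes were higher and 12.4% lower, and the median log2 fold change was 0.18. With the replicate block 6 of 13 were higher, against 20.2% of all genes. PSBP2, a low-level relative of the oxygen-evolving subunit PSBP1, had 20.7, 23 and 21.5 RPKM in C24, against 5.64, 7.46 and 7.39 in Col, and 9.96 to 17.2 in the hybrids (log2 fold change 1.55, SE 0.16, limma adjusted p = 5.93e-05). C24 was above the hybrids and the hybrids above Col, with no overlap. LHCB7, a rare antenna gene, averaged 16.9 ± 1.3 RPKM in C24 and 11.6 ± 0.659 in Col, and PSAH1, the other copy of PSAH2, averaged 1509 ± 79.2 in C24 and 1139 ± 69.3 in Col.

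Of 11 electron transport genes 3 were higher in C24 and 0 lower, and with the replicate block 8 were higher and 0 lower (20.2% and 21.5% of all genes). FD2, the main leaf ferredoxin, had 1889, 2031 and 1835 RPKM in C24, against 977, 1353 and 1123 in Col (log2 fold change 0.75, SE 0.11, limma adjusted p = 0.000646), with 1421 to 1677 in the hybrids and no overlap between these 3 sets of libraries. PETM, a small subunit of the cytochrome b6f complex, and LFNR1, which passes electrons from ferredoxin to NADP, were the others. Of 15 regulators GUN1, of plastid-to-nucleus signalling, was higher in C24 (102.6 ± 8.47 RPKM against 71.2 ± 5.91 in Col) and the light-stress gene ELIP1 was lower, at 2.11 RPKM or less in every library. The transcription factor gene GLK1 averaged 71.9 ± 30.3 RPKM in C24 and 56.9 ± 9.62 in Col, and GLK2 averaged 92.0 ± 32.7 in C24 and 92.1 ± 14.5 in Col, without passing. With the replicate block 1 regulator was higher (GUN1) and 2 lower (ELIP1 and CPFTSY).

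In the hybrids, PSBP2, PSAH1 and FD2 were higher and CPFTSY, a factor for insertion of antenna proteins, was lower than in Col. PSBP2, LHCB7 and PETM were lower in the hybrids than in C24. The replicate block left the other photosystem and electron transport genes called against Col at 2 and 1, and made 1 regulator higher (GUN1) and 2 lower (CPFTSY and ELIP1). Against C24 it moved the genes called lower to 4 of 13 other photosystem genes, 6 of 11 electron transport genes and 2 of 15 regulators, where 13.4% of all genes were lower.

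Values also differed by replicate number. In the reported fit members were called no more often than all genes, but under some of the alternatives below they were called more often. In replicate 1, against replicates 2 and 3, 32 of 33 members had negative fold changes, with a median log2 fold change of -0.14 against -0.04 over all genes tested. In limma with the group in the model 5 of 33 members were lower (17.5% of all genes) and 0 were higher (16.6% of all genes). The 5 were LHCB1.4 (log2 fold change -0.22), LHCB1.5 (-0.19), LHCB5 (-0.18), LHCB4.2 (-0.17) and PSAD1 (-0.17), with adjusted p of 0.0175 to 0.0492. LHCB1.4, a trimer gene, had 4043 RPKM in replicate 1 of C24/Col against 4923 and 4618 in replicates 2 and 3, 3999 against 5219 and 4362 in Col/C24, 4181 against 4637 and 4318 in C24, and 3153 against 3779 and 4017 in Col. LHCB5, the monomer CP26, had 4759 RPKM in replicate 1 of C24/Col against 5563 and 5089 in replicates 2 and 3, 4613 against 5827 and 4788 in Col/C24, 4902 against 5539 and 5211 in C24, and 4518 against 5328 and 5267 in Col. Replicate 1 was lowest in each group for these genes, as for 10 of 33 members in all, against 14.0% of all genes tested.

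The count of members lower in replicate 1 moved with the scaling, although the direction did not: 1 passed after median-of-ratios scaling (15.4% of all genes), 18 after rescaling to nuclear genes without ribosomal RNA (15.2%) and 21 with the share of ribosomal RNA in the model (18.5%). Leaving out 1 library gave 0 to 16. It was 0 without replicate 1 of either hybrid or of Col, 16 without replicate 3 of Col/C24, and 1 or 2 without any 1 of the C24 libraries or without replicate 2 or 3 of C24/Col. Over all genes, leaving out 1 library gave 2009 to 3397 lower, with 3397 of 17908 tested without replicate 3 of Col/C24. The difference of replicate 1 was not shown to vary with group. In the interaction 0 of 33 members passed (0 with an unadjusted p under 0.05), and so did 0 of all 17927 genes tested.

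Other genes moved with replicate 1. GLK1 had 58.2 RPKM in replicate 1 of C24/Col, 48.8 in Col/C24, 36.9 in C24 and 46.1 in Col, against 82.7, 82.9, 90.7 and 59.7 in replicate 2 and 81.4, 71.5, 87.9 and 64.7 in replicate 3 of those groups. Replicate 1 was lowest in every group (log2 fold change -0.70, SE 0.11, limma adjusted p = 0.000536), as for GLK2 (-0.54, SE 0.09, adjusted p = 0.000733). CPSRP43 (-0.34) and CPSRP54 (-0.20), which carry antenna proteins to the thylakoid, and the kinase STN8 (-0.20) were lower too, making 5 of 15 regulators. Lower as well were 2 of 13 other photosystem genes (PSBP2 and PSB27) and 2 of 11 electron transport genes (LFNR2 and ATPC1). Over all genes 17.5% were lower. All 9 heat, touch and defence genes of the stress list were higher in replicate 1, where 16.6% of all genes were higher. They summed to 1340 to 3219 RPKM there, against 367 to 624 in replicate 2 and 527 to 918 in replicate 3. This list was chosen with earlier results of these data known, so its count is a description and not a test. The labels do not say what the replicate number stands for, and the part of these genes in the members' levels was not tested.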

How the data were processed

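Polyadenylated RNA of 12 shoot libraries was sequenced, and 1 file per library was deposited. The authors deposited 1 value per gene, which was read as RPKM from the spacing of low values in genes of 150 to 600 bp: 69.7% to 75.2% of them came out whole within 0.15 of a read. Alignment with TopHat to TAIR10 is stated per the submitters' processing notes. Counting tool, annotation and strand setting are not given in the sources used. The 567 identifiers listed more than once were left out, leaving 32992 genes. Per-sample columns not used numbered 0.

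Values were analysed as log2(RPKM + 1), on which the change of low genes is understated. Genes reaching 1 RPKM in 3 or more libraries entered limma 3.58.1 (R 4.3.3) with a mean-variance trend, and Benjamini-Hochberg adjustment ran over all genes tested, with a threshold of 0.05. The mid-parent profiles were fitted with the 6 hybrid libraries. Python 3.11.15, numpy 2.4.6, pandas 2.3.3, matplotlib 3.10.9 and biopython 1.88 served the rest. The fits were tested on simulated data, with changes larger than those of the members and with libraries varying independently. That test does not cover changes of the members' size.

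As to pairing, the 18 pairs of libraries that share a replicate number had correlations of 0.54 to 0.83 between their deviations from group means, and the 36 other pairs had -0.65 to 0.19. By the data over all genes tested, though not by the labels, the numbers pair the libraries. Over the members alone the correlations were -0.11 to 0.84 for the same number and -0.81 to 0.55 for different numbers, ranges that overlap. Counts with the block are given for the members and the pathway lists where they change.

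The members and lists were chosen with earlier results of these data known. Values by library are given for called members, up to 8 per comparison, the highest and lowest of each complex, the duplicated pairs and the LHCB4 genes, and up to 3 called genes of each other list per comparison. LHCA2, LHCB2.1, LHCB2.2 and the ratios of pairs were added after their values were seen. Sequences and coordinates are from RefSeq TAIR10.1, and identities were computed from the first annotated isoform. Alternatives were other filters and pseudocounts, other scalings, a covariate for ribosomal RNA, the replicate block and each library left out.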

Additional observations from a re-analysis of the deposited data

How the results depend on the processing

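Members called in C24 against Col numbered 5 in the reported fit, 13 with the replicate block, 8 with median-of-ratios scaling and 16 with that scaling and the replicate block together. They numbered 2 without a filter on low values, 2 with a covariate for ribosomal RNA, 2 without the 4 libraries above 2% ribosomal RNA, 1 in replicates 2 and 3 only, and 2 to 6 with 1 library left out. Members called in the hybrids against Col numbered 0 in the reported fit, 8 with the replicate block, 7 with median-of-ratios scaling, 15 with both, 6 rescaled to nuclear genes without ribosomal RNA, and 0 to 1 with 1 library left out. Against C24 they numbered 1, and 5 with the replicate block, 3 with median-of-ratios scaling and the block, 0 without a filter, 0 in replicates 2 and 3 only and 0 to 2 with 1 library left out. For replicate 1 the count was 5, and 0 without a filter, 8 with at least 5 RPKM in 3 libraries, 1 with median-of-ratios scaling, 18 rescaled to nuclear genes, 21 with the covariate, 0 without the 4 libraries, and 0 to 16 with 1 library left out. Calls over all genes moved as well. In C24 against Col, 1852 of 17927 genes were higher and 2219 lower in the reported fit. With scaling and block together 4102 and 3851 of 17935 were, and without a filter 2166 and 2533 of 25136. In the hybrids against Col these numbers were 747 and 1486, and 2987 and 2573 with both. Against C24 they were 659 and 690, and 2137 and 2007 with both. In replicate 1, 3140 were lower, and 2859 of 13581 with at least 5 RPKM in 3 libraries. The cause of these moves was not tested. Reciprocal and mid-parent counts were 0 in every alternative run.

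Of 634 alternative fits of the 35 gene results that passed, 457 kept the call, 177 lost it and 0 reversed direction. The combination of scaling and block, the fit of replicates 2 and 3 and the removal of the 4 libraries were chosen after seeing the data. Without the 4 libraries Col/C24 and Col keep 1 library each, assumed to vary like the others. With 3 libraries a group, a fold change near the SE of about 0.1 cannot be resolved. Measured members other than LHCB4.3 have at least 15981 reads per library by the estimated depths, so that counting error is not their limit. Copies within LHCB1 and LHCB2 are uncertain.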
